A study of Mus musculus with 6 samples.

Results

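Transcription factors that specify and maintain midbrain dopaminergic (DAergic) neurons were examined in RNA from the substantia nigra (SN) of MitoParks and littermate controls. The members are Nr4a2, Foxa1, Foxa2, Pitx3, Lmx1a, Lmx1b, En1 and En2. They were chosen by gene symbol, and all 8 were found among the 24054 genes of the deposited table. The study sequenced polyadenylated RNA from 3 MitoParks and 3 littermate controls to profile transcription under mitochondrial stress. MitoParks are Dat +/Cre with Tfam LoxP/LoxP, so that Tfam, which encodes mitochondrial transcription factor A, is deleted in cells that express the dopamine transporter (DAT, gene Slc6a3). Littermate controls are Tfam +/LoxP with Dat +/+, which means that both groups carry at least 1 floxed Tfam allele and only MitoParks carry Cre, at 1 copy of Slc6a3. By the paper's methods, mice of this control genotype could come from litters of MitoParks or of the parental strain. The mice are on a C57BL/6 background, were not treated, and were 16 to 17 weeks old by the labels. The labels call the tissue brain and the paper calls it the SN, and the deletion leaves Tfam intact in the other cells of the dissected tissue.

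Midbrain DAergic neurons arise from the floor plate of the embryo, where the forkhead factors Foxa1 and Foxa2 and the LIM homeodomain factors Lmx1a and Lmx1b act on the progenitors. The nuclear receptor Nr4a2 (Nurr1) and the homeodomain factor Pitx3 then drive the genes of dopamine synthesis, storage and uptake, and the engrailed factors En1 and En2 support survival. Expression of these factors continues in adult DAergic neurons, but most of them are also used elsewhere: Lmx1b and the engrailed genes in serotonergic neurons of the hindbrain, En2 in the cerebellum, and Foxa1 and Lmx1a in the neighbouring subthalamic region.

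Total expected counts per mouse were between 8140777 and 10528602. Levels are given as CPM, counts scaled to the size of each library after TMM normalization, and at these depths 3 counts, taken as the lowest level that can be told from 0, correspond to 0.285 to 0.369 CPM. Between the groups, 84 of 14568 genes tested passed the cutoffs used here (0.577%), which were a change of more than 1.5-fold and an unadjusted p below 0.05 in edgeR's quasi-likelihood test. No gene had a Benjamini-Hochberg adjusted p below 0.05 with edgeR, DESeq2 or limma-voom, while with edgeR 161 had an unadjusted p below 0.05. Tfam itself was at 40.3, 44.3 and 45.4 CPM in littermate controls, against 32.6, 33.0 and 33.2 CPM in MitoParks, below every littermate control. Y-linked Ddx3y was counted at 117 and 168 CPM in littermate control 1 and MitoPark 2 and at 0.101 CPM or less in the other mice, so that each group holds 1 male by this gene. Littermate control 3 stood apart from its group, in that the summed level of Th, Ddc and Slc18a2, genes of DAergic neurons, was 588 CPM in littermate control 3, 223 and 246 CPM in littermate controls 1 and 2, and between 168 and 259 CPM in MitoParks.

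Of the 8 transcription factors, 7 had a negative log2 fold change in MitoParks and 1, En2, a positive one, where 51.4% of all genes tested were negative. Their median log2 fold change was -0.53, against -0.005 over all genes tested. Pitx3, 1 of the 7, reached the mean of 1 CPM needed for testing only through the littermate controls. With filterByExpr, an alternative filter that removed Pitx3, the median was -0.46. Foxa1 was the only member past the cutoffs, and 0.199% of all genes tested passed them as lower. No member separated the groups without overlap, which 4.71% of all genes tested did. In these bulk samples fewer DAergic neurons, less RNA per neuron and differences in the tissue dissected from each mouse cannot be told apart.

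**Figure D1:**
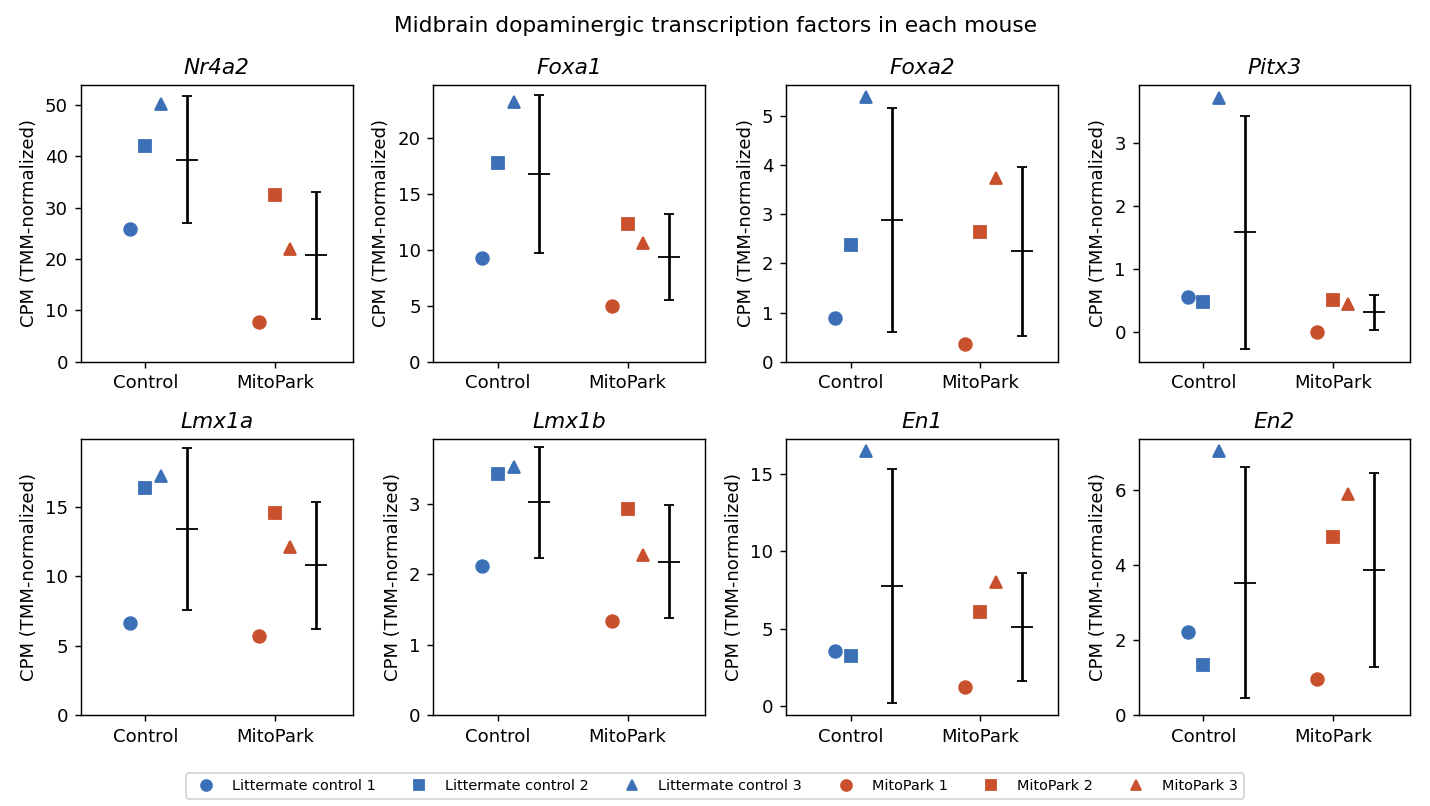
TMM-normalized CPM of the 8 transcription factors in each of the 3 littermate controls (blue) and 3 MitoParks (orange), with symbols for the replicate number and bars for mean ± SD. MitoPark 1 was the lowest and littermate control 3 the highest mouse for all 8 genes, and the groups overlapped for each.

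Foxa1 encodes a forkhead factor that opens chromatin for other factors and acts with Foxa2 in the maintenance of DAergic neurons. Its level was 9.23, 17.7 and 23.2 CPM in littermate controls 1, 2 and 3, against 4.99, 12.3 and 10.6 CPM in MitoParks 1, 2 and 3. Littermate control 1 lay below MitoParks 2 and 3, so the groups overlapped. The means were 16.7 ± 7.06 CPM (SD, n = 3) in littermate controls and 9.32 ± 3.84 CPM (SD, n = 3) in MitoParks. Foxa1 was 1.79-fold lower in MitoParks, a log2 fold change of -0.84 (standard error 0.37), and edgeR's quasi-likelihood test gave an unadjusted p = 0.0488 (adjusted p = 0.999). An exact two-sided permutation test gave p = 0.3, where 3 mice against 3 cannot give less than 0.1. The call held without littermate control 1 (log2 fold change -1.12) and without MitoPark 2 (-1.09). It was lost without littermate control 2 (-0.80), littermate control 3 (-0.53), MitoPark 1 (-0.53) or MitoPark 3 (-0.94).

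Because Foxa1 was the member past the cutoffs, the bases before its start are shown, with letters that members' own families bind in capitals. The stretch runs from 250 to 131 bases before the RefSeq start and lies at chr12:57546242-57546361 on the minus strand of GRCm38.p6.
Foxa1: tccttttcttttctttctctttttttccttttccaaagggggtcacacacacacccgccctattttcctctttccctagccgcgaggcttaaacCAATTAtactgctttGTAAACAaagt
Capitals mark TAATTG, a homeodomain core, and TGTTTAC, a forkhead core, both read on the opposite strand. A second GENCODE M21 transcript of Foxa1 starts 136 bases before the RefSeq start, so the last bases shown are transcribed in that model. RefSeq windows were found for 7 of the 8 members, 9 windows in all, and each was searched on both strands over 250 bases. The letters searched were the forkhead core TGTTTAC, the homeodomain cores TAATTG and TAATTA, the bicoid-type core TAATCC that Pitx3 binds, and the NBRE bound by Nr4a2, AAAGGTCA. The Foxa1 window was the only one with any match. Among 32851 windows of all genes, TGTTTAC was in 3.17%, TAATTG in 7.17%, TAATTA in 4.84%, TAATCC in 6.25% and AAAGGTCA in 1.34%. TAATTG and TAATTA share their first 5 letters but were counted apart.

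Nr4a2 encodes the orphan nuclear receptor that DAergic neurons need to make and keep their transmitter phenotype, and it had the highest level of the members. The values were 25.9, 42.0 and 50.2 CPM in littermate controls 1, 2 and 3, against 7.79, 32.4 and 22.0 CPM in MitoParks 1, 2 and 3. MitoParks 1 and 3 were below every littermate control, while MitoPark 2 was above littermate control 1. The means were 39.4 ± 12.3 CPM (SD, n = 3) and 20.7 ± 12.4 CPM (SD, n = 3). Nr4a2 had a log2 fold change of -0.92 in MitoParks (standard error 0.41), and edgeR's quasi-likelihood test gave an unadjusted p = 0.0522, which missed the cutoff (adjusted p = 0.999). Nr4a2 passed without littermate control 1 (log2 fold change -1.14) or MitoPark 2 (-1.39), and its value was -0.52 without MitoPark 1.

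Pitx3 encodes a homeodomain factor that in the adult brain is found almost only in DAergic neurons. Littermate controls 1, 2 and 3 had 5, 5 and 38 counts and MitoParks 1, 2 and 3 had 0, 5 and 4. These are 0.556, 0.474 and 3.71 CPM against 0, 0.505 and 0.453 CPM. Apart from littermate control 3, every mouse was thus close to what 3 counts can show, and MitoPark 2 was above littermate control 2. Pitx3 passed the filter on low counts only through the littermate controls, so its direction was partly set by that filter. Its log2 fold change of -2.22 (standard error 0.99) missed the cutoff in edgeR's quasi-likelihood test (unadjusted p = 0.0509, adjusted p = 0.999). Without littermate control 3 the gene no longer passed the filter and had no value, and it passed the cutoffs without littermate control 1 (-2.60) or littermate control 2 (-2.66). Its exons overlap those of Elovl3 on the other strand, but Elovl3 had between 0 and 2 counts per mouse.

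Foxa2, the forkhead partner of Foxa1, was at 0.890, 2.37 and 5.37 CPM in littermate controls, against 0.365, 2.63 and 3.74 CPM in MitoParks. MitoPark 1 had 3 counts, and MitoParks 2 and 3 lay between littermate controls 2 and 3. The log2 fold change of -0.36 (standard error 0.71) did not pass the test (unadjusted p = 0.628, edgeR's quasi-likelihood test). It was 0.45 without littermate control 3, 0.14 without MitoPark 1 and -0.90 without MitoPark 3.

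Lmx1a, the LIM homeodomain factor that starts the DAergic program in the floor plate, was at 6.68, 16.3 and 17.2 CPM in littermate controls, against 5.72, 14.5 and 12.1 CPM in MitoParks. Mice fell into a low level, in the first replicate of each group, and a high level in all others, with the genotypes mixed in both. The log2 fold change of -0.31 (standard error 0.39) did not pass edgeR's quasi-likelihood test (unadjusted p = 0.447). It was -0.62 without littermate control 1, -0.14 without littermate control 2, -0.09 without littermate control 3, and 0.00042 without MitoPark 1. Its relative Lmx1b, which also acts in serotonergic neurons, was at 2.11, 3.42 and 3.52 CPM in littermate controls, against 1.34, 2.93 and 2.27 CPM in MitoParks. Lmx1b ordered the mice as Lmx1a did in both groups, and its log2 fold change of -0.46 (standard error 0.36) did not pass either (edgeR's quasi-likelihood test, unadjusted p = 0.227). Between 11 and 36 counts per mouse lie behind the Lmx1b values.

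En1 and En2 encode the engrailed homeodomain factors, and a loss of En1 in mice leads to a progressive loss of DAergic neurons. En1 was at 3.56, 3.23 and 16.5 CPM in littermate controls, against 1.22, 6.06 and 8.04 CPM in MitoParks. En2 was at 2.23, 1.33 and 7.03 CPM in littermate controls, against 0.974, 4.75 and 5.89 CPM in MitoParks. For both genes MitoParks 2 and 3 were above littermate controls 1 and 2, and littermate control 3 was above all. The log2 fold changes were -0.60 for En1 (standard error 0.71, unadjusted p = 0.418) and 0.14 for En2 (standard error 0.67, unadjusted p = 0.838) in edgeR's quasi-likelihood test. Without littermate control 3 they were 0.60 for En1 and 1.14 for En2, and neither passed the cutoffs (unadjusted p = 0.290 and 0.0782, edgeR's quasi-likelihood test). Without MitoPark 3 they were -1.06 and -0.27, and without littermate control 2 they were -0.97 and -0.26. The value of En2 was also below 0 without littermate control 1 (-0.09) and without MitoPark 2 (-0.02).

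MitoPark 1 was the lowest and littermate control 3 the highest of the 6 mice for all 8 members, a combination found in 4.90% of all genes tested. The values were therefore also computed without this pair of mice, an alternative chosen after the data were seen. Because these mice are the lowest MitoPark and the highest littermate control for every member, leaving them out raises each member's log2 fold change and narrows its spread by construction. The values are therefore a description, and the calls in this fit, with 2 mice per group, support no direction. Of the 7 members then tested, 4 had a positive log2 fold change. En1 (1.05) and En2 (1.59) were beyond the cutoffs, as were 2.01% of all genes tested as higher and 2.83% in either direction. Nr4a2 was at -0.32, Foxa1 at -0.24 and Lmx1b at -0.10, none beyond the cutoffs. Pitx3 was not tested without littermate control 3.

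**Figure D2:**
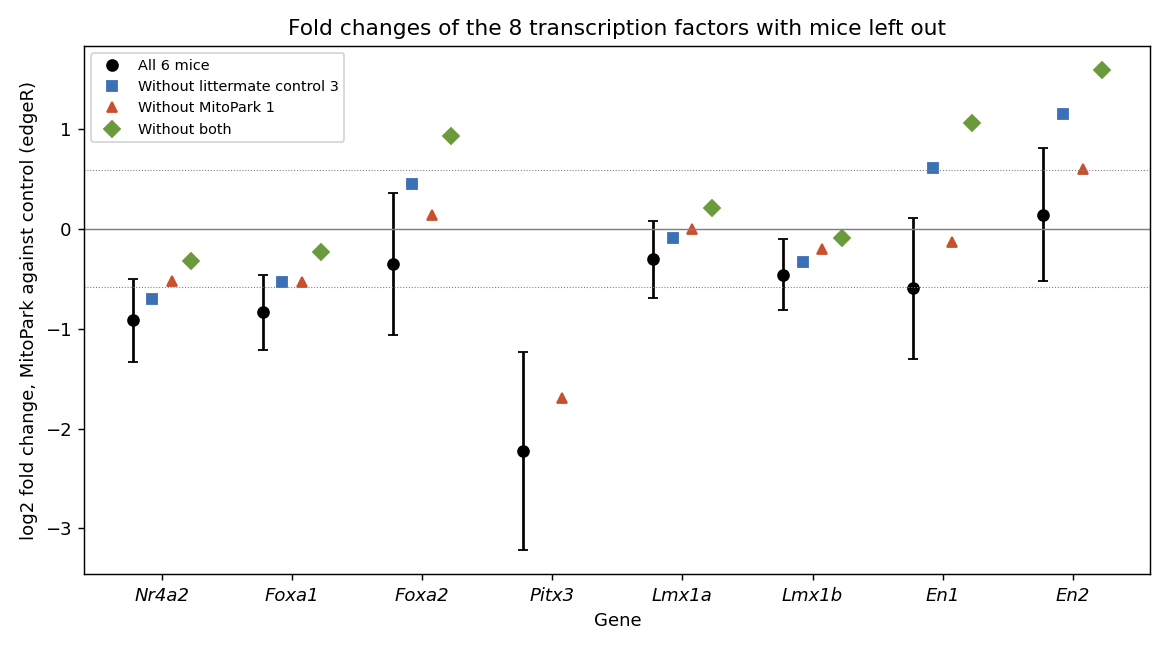
Log2 fold change of each member in MitoParks against littermate controls from edgeR with all 6 mice (black, bar ± standard error), without littermate control 3, without MitoPark 1 and without both. Dotted lines mark the 1.5-fold cutoff. Nr4a2, Foxa1 and Lmx1b were below 0 in all 4 fits, and En1 moved from -0.60 to 1.05.

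The members followed different profiles over the 6 mice. Likeness was measured as the root-mean-square distance between profiles of log2(CPM + 0.1) centred on each gene's own mean, a description over 6 mice with no test. Foxa1, Lmx1a, Lmx1b and Nr4a2 lay within 0.25 to 0.48 of each other. En1 lay at 0.39 from En2 and at 0.46 from Foxa2, but at 0.73 or more from Foxa1, Lmx1a, Lmx1b and Nr4a2. Pitx3 was 0.67 or more from every other member. Its profile rests on 0 to 5 counts in every mouse but littermate control 3, and its value in MitoPark 1, with 0 counts, is set by the 0.1 CPM added. Littermate control 2 was close to littermate control 3 for Lmx1a and Lmx1b and to littermate control 1 for Pitx3 and En1.

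Among 12018 other genes with a mean above 5 CPM, those near Lmx1a included Ebf2 (0.15) and Ctxn3 (0.17), where the median over all these genes was 0.63. Ebf2, which encodes an early B-cell factor expressed in neurons, was at 6.90, 12.6 and 13.8 CPM in littermate controls, against 5.48, 12.8 and 11.4 CPM in MitoParks, with the first replicate of each group low as for Lmx1a. For Foxa1 the nearest genes were Postn (0.17), Ctxn3 (0.19) and Gucy2c (0.22), and for Lmx1b they were Cpne9 (0.09), Nrn1 (0.11) and C130021I20Rik (0.11). Nr4a2 had Postn (0.35), Gucy2c (0.36) and Neurod2 (0.40) as its nearest genes. Gucy2c, a guanylyl cyclase receptor known from midbrain DAergic neurons, was nearest to the mean profile of all members (0.25), ahead of Ret (0.27), Chrna6 (0.29), Chrnb3 (0.33) and C1ql1 (0.33).

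The nearest gene to Pitx3 was Slc6a3, the dopamine transporter, at 0.28, where the median distance was 1.53. Slc6a3, which carries Cre at 1 copy in MitoParks only, was at 72.5, 65.2 and 383 CPM in littermate controls, against 13.3, 51.0 and 40.9 CPM in MitoParks. Chrna6 (0.48) and Chrnb3 (0.71), subunits of nicotinic receptors on DAergic terminals, came next. For En1 they were the nearest genes themselves, at 0.35 and 0.23, followed by Gvin1 (0.46). Chrnb3 was also nearest to Foxa2 (0.29), followed by C1ql1 and Chrna6 (both 0.54). En2 had Mob3b (0.48), Rab37 (0.50) and Chrnb3 (0.50) as its nearest genes.

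**Figure D3:**
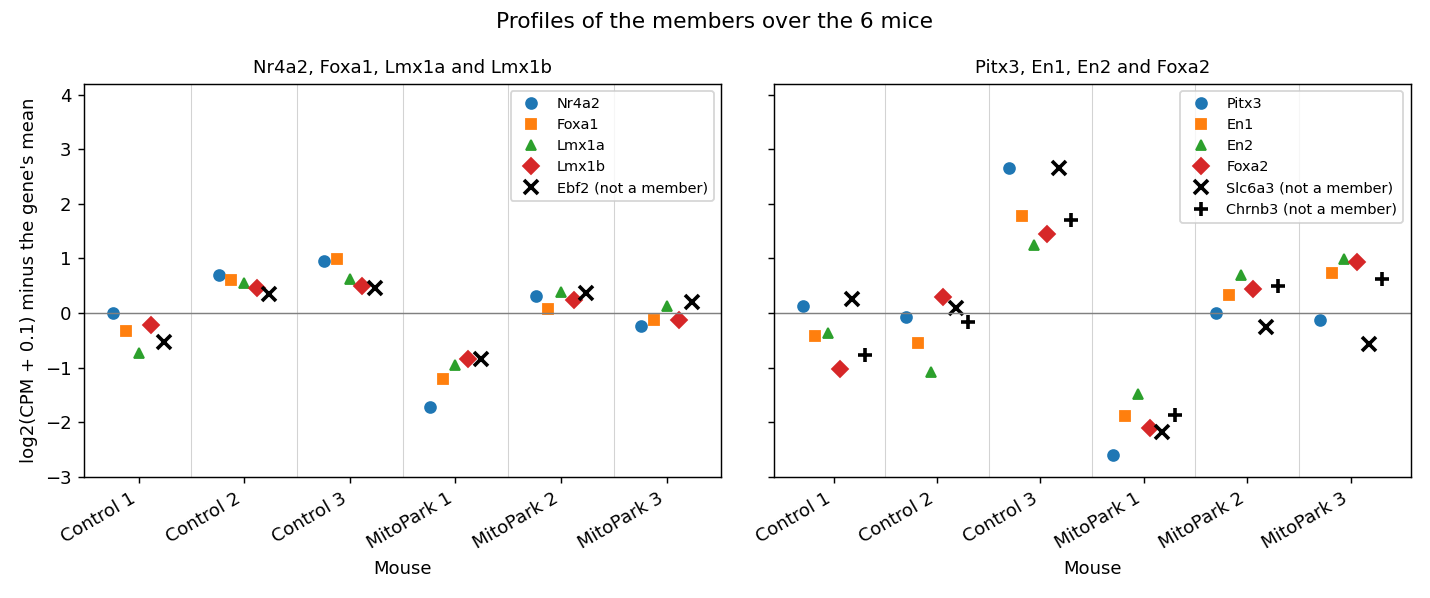
Profiles of log2(CPM + 0.1), each minus the gene's mean over the 6 mice, for Nr4a2, Foxa1, Lmx1a and Lmx1b (left, with Ebf2) and for Pitx3, En1, En2 and Foxa2 (right, with Slc6a3 and Chrnb3). Lmx1a and Ebf2 lie close together in every mouse, and Pitx3 and Slc6a3 share the high value of littermate control 3.

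To set the members against genes of DAergic neurons in each dissection, each was divided by the summed CPM of Th, Ddc and Slc18a2. These encode tyrosine hydroxylase, the decarboxylase that completes dopamine synthesis and the vesicular monoamine transporter. Slc6a3 was left out of the sum because MitoParks carry Cre at 1 copy of it. The sum was lowest in MitoPark 1 (168 CPM) and highest in littermate control 3 (588 CPM), as the members were. Among MitoParks it was close in MitoPark 2 (254 CPM) and MitoPark 3 (259 CPM), and the serotonergic marker Tph2 was at 23.3 CPM in MitoPark 3. Th (65.5 against 57.0 CPM) and Ddc (83.0 against 72.3 CPM) were higher in MitoPark 3 than in MitoPark 2, and Slc18a2 was lower (111 against 125 CPM). The part of serotonergic neurons in the sum was not tested. The groups overlapped for all 8 ratios, and the exact two-sided permutation tests of the 8 log2 ratios gave p-values of 0.2 or more (adjusted p = 1 over the 8 tests). Nr4a2 was at 11.6, 17.1 and 8.53% of the sum in littermate controls and at 4.63, 12.8 and 8.48% in MitoParks, a difference in mean log2 ratio of -0.58. Littermate control 3, which had the most Nr4a2, thus had the lowest share among the littermate controls. The differences were -0.33 for Foxa1, -1.30 for Pitx3, 0.22 for Lmx1a and 0.65 for En2, and between -0.03 and 0.03 for Foxa2, Lmx1b and En1. The value of Pitx3 was -0.55 with a pseudocount of 0.5 CPM in place of 0.1 CPM and -0.65 without MitoPark 1, which had 0 counts. With the larger pseudocount the exact permutation test for Pitx3 gave an unadjusted p = 0.1, the lowest that 3 mice against 3 can give. The value of Nr4a2 was -0.20 without MitoPark 1, and that of Foxa1 was -0.03 with Slc6a3 added to the sum and -0.05 without littermate control 2.

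**Figure D4:**
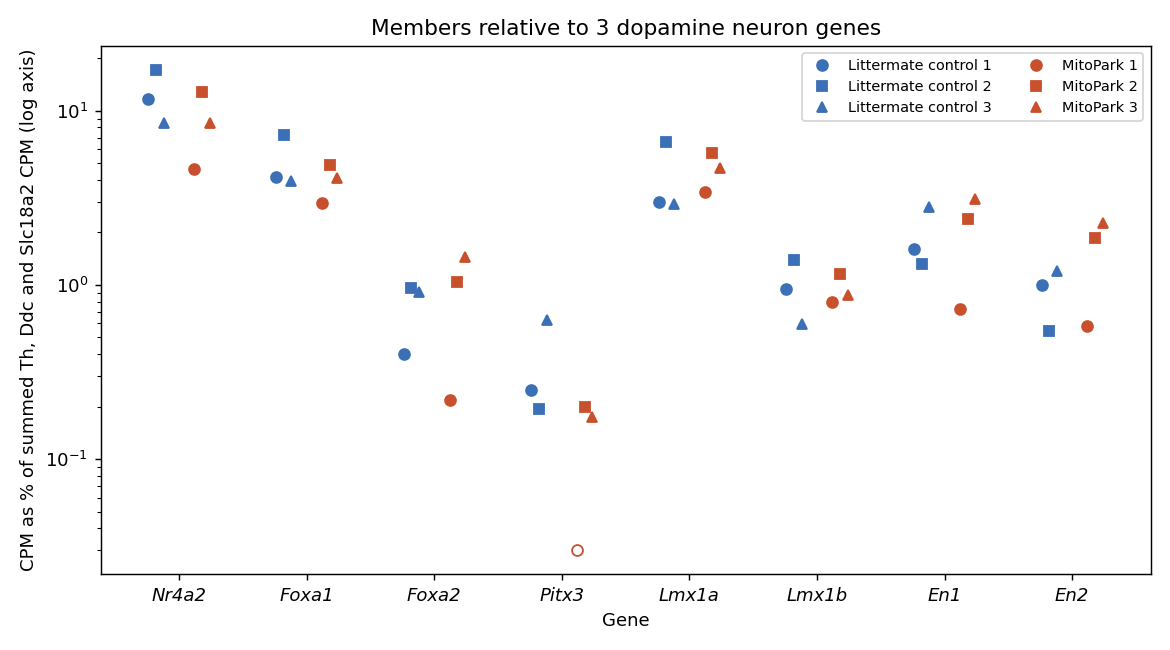
CPM of each member as a percentage of the summed CPM of Th, Ddc and Slc18a2 in each mouse, on a log axis. The open circle stands for Pitx3 in MitoPark 1, which had 0 counts and is drawn at an arbitrary height. Nr4a2 ranged from 4.63 to 17.1%, and the groups overlapped for every member.

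Per length of the longest GENCODE M21 transcript, levels in littermate controls ran from 11.04 CPM per kb for Nr4a2 through 5.25 for Foxa1, 4.002 for Lmx1a, 2.96 for En1, 1.35 for Foxa2, 1.15 for Pitx3 and 0.997 for En2 to 0.629 CPM per kb for Lmx1b. Ranges over the 3 littermate controls overlapped for every pair of neighbours in this order. Within single mice, however, Nr4a2 was above Foxa1 and En1 above Foxa2 in 6 of 6. Foxa1 was above Lmx1a in all 3 littermate controls and below it in all 3 MitoParks, where the means were close (2.92 and 3.23 CPM per kb). The share of other gene pairs that change order between the groups was not computed, and no test was made. The order of the other neighbours differed among the littermate controls. Related members share little exact sequence. The longest run common to any of their GENCODE M21 transcripts was 38 bases for Foxa1 and Foxa2, 21 for Lmx1a and Lmx1b and 17 for En1 and En2, and 46 of the 48 member values were whole numbers within 1e-09.

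Of 18 other regulators known from DAergic neurons or their progenitors, 11 had a negative and 7 a positive log2 fold change, with a median of -0.03 and none past the cutoffs. With edgeR, DESeq2 and limma-voom alike, 0 of them had an unadjusted p below 0.05, and Ebf3 (without littermate control 1) and Msx1 (without MitoPark 3) passed the cutoffs with 1 mouse left out. Those with high levels included Ldb1 (log2 fold change -0.01), Nr2f2 (0.23), Ebf3 (-0.41), Rxra (-0.02) and Satb1 (-0.37). Rxra encodes a partner with which Nr4a2 forms dimers, and it ranged from 49.2 to 63.7 CPM in littermate controls and from 52.7 to 62.7 CPM in MitoParks. Of 18 genes of the DAergic phenotype, 16 were negative and 2 positive, with a median of -0.44, and Slc6a3 (-2.30, unadjusted p = 0.00895, edgeR's quasi-likelihood test) passed the cutoffs. Only MitoParks carry Cre at 1 copy of Slc6a3, so the part of that allele in its level cannot be told apart from other differences between the groups. Leaving out single mice gave between 1 and 6 DAergic phenotype genes past the cutoffs, with 6 without littermate control 2, 5 without littermate control 1 and 2 without MitoPark 2. Slc6a3 was among them each time, but not with robust dispersion (0 genes) or without both littermate control 3 and MitoPark 1, where Chrnb3 was the gene past the cutoffs. Dlk1 (-0.03), Aldh1a1 (-0.40), Slc18a2 (-0.57), Ret (-0.64) and Ddc (-0.67) were the others with the highest levels.

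Marker genes of neighbouring regions differed between mice of the same group. Hcrt, the hypocretin gene of the lateral hypothalamus, was at 136, 1.71 and 1.66 CPM in littermate controls, against 204, 19.5 and 3.74 CPM in MitoParks. It was thus highest in littermate control 1 and MitoPark 1, the mice in which Nr4a2, Foxa1, Foxa2, Lmx1a and Lmx1b were lowest within their groups. Pmch, which encodes a hormone precursor of lateral hypothalamic neurons, was likewise highest in these mice, at 912 and 1401 CPM, with 52.7 to 382 CPM in the other 4. Barhl1 and Barhl2, homeobox genes of the subthalamic and posterior hypothalamic region, had their lowest levels within each group in the same mice, as Lmx1a, Lmx1b and Foxa1 did. Barhl1 was at 2.56, 7.02 and 4.88 CPM in littermate controls, against 3.41, 5.05 and 5.44 CPM in MitoParks. Barhl2 was at 5.56, 10.2 and 9.96 CPM in littermate controls, against 4.75, 6.56 and 5.89 CPM in MitoParks. Their part in the differences of the members was not tested.

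Serotonergic neuron markers stood out in MitoPark 3, where Tph2 was at 23.3 CPM against 0.244 to 0.781 CPM in the other 5 mice. Their sum (Tph2, Slc6a4, Fev, Gata3 and Gata2) was 5.45 to 17.4 CPM in littermate controls and 5.11 to 57.0 CPM in MitoParks, and 4 of the 5 passed the filter. In littermate control 3, which had the 17.4 CPM, most of the sum was Gata3 (8.30 CPM) and Gata2 (8.10 CPM), with Tph2 at 0.781 CPM. Lmx1b, En1 and En2 are also expressed in serotonergic neurons. With all mice their log2 fold changes were -0.46, -0.60 and 0.14, and without MitoPark 3 they were -0.48, -1.06 and -0.27. Lmx1b thus hardly moved, and it was lower in MitoPark 3 (2.27 CPM) than in MitoPark 2 (2.93 CPM). En1 (8.04 against 6.06 CPM) and En2 (5.89 against 4.75 CPM) were higher in MitoPark 3. Foxa2, not named here as serotonergic, also moved, from -0.36 to -0.90. Gabra6, a marker of cerebellar granule cells, in which En2 is expressed, was at 13.4 CPM in littermate control 3 and 11.1 CPM in MitoPark 2, at 0 in MitoParks 1 and 3 and at 1.56 CPM or less in littermate controls 1 and 2. The 5 cerebellar markers (Pcp2, Gabra6, Cbln1, Cbln3 and Car8), of which 4 passed the filter, summed to 129 to 196 CPM in littermate controls and 110 to 198 CPM in MitoParks, with Pcp2 at 0 in MitoPark 1. Within each group Pcp2, Cbln3 and Car8 were highest in littermate control 3 and MitoPark 2, as Gabra6 was. Cbln1, the largest part of the sum, was instead highest in littermate control 1 (119 CPM) and MitoPark 1 (132 CPM). The part of the serotonergic and cerebellar markers in the values of the members was not tested.

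**Figure D5:**
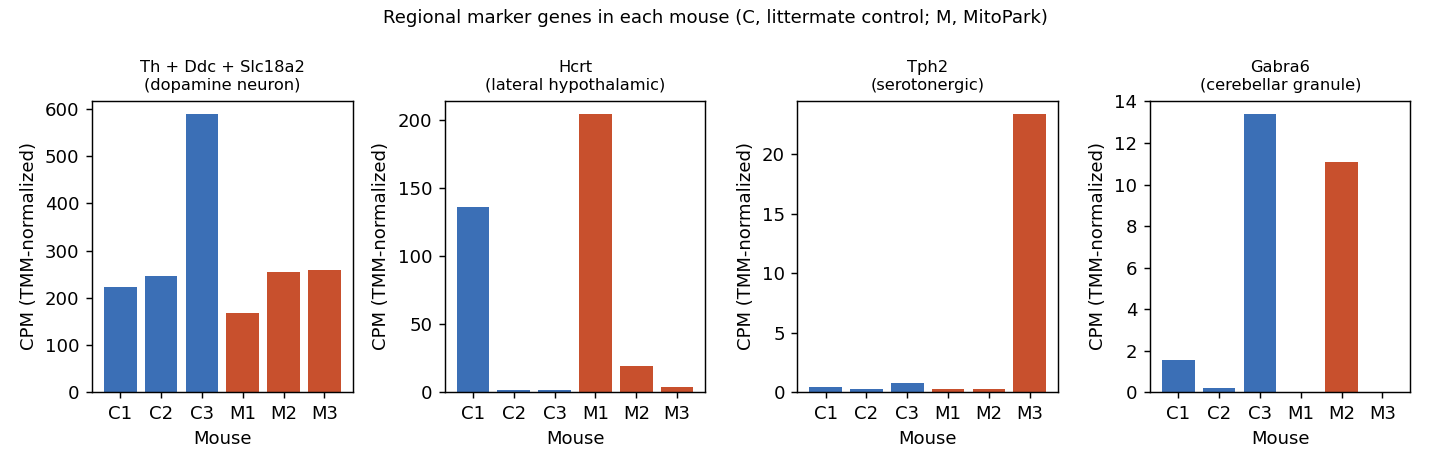
CPM of regional marker genes in each mouse (C1 to C3, littermate controls; M1 to M3, MitoParks), with bars from 0. The sum of Th, Ddc and Slc18a2 was highest in C3 at 588 CPM, Hcrt was high in C1 and M1, Tph2 in M3, and Gabra6 in C3 and M2.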

How the data were processed

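Poly-A RNA of the SN from 3 MitoParks and 3 littermate controls was sequenced from strand-specific libraries. The authors mapped reads to UCSC transcripts with Bowtie2 2.1.0 and deposited expected counts estimated with RSEM 1.2.15, without normalization. The submitters' processing notes name a human genome build although the gene symbols are those of mouse, and whether strand was used in counting is not given in the sources used here, so reads of overlapping antisense genes cannot be told apart. The table heads the MitoPark columns as treated and numbers them as the sample titles do. 0 columns belonged to no sample.

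Expected counts were rounded, genes were tested if their mean was over 1 CPM in either group, and TMM normalization and edgeR 4.0.16 quasi-likelihood tests (R 4.3.3) were used with the group as the only term, a procedure tested on simulated data. All genes were fitted together and adjusted by the Benjamini-Hochberg method. The standard error is the log2 fold change divided by the square root of the F statistic. Exact permutation tests used log2(CPM + 0.1). Alternatives were DESeq2 1.42.0, limma-voom (limma 3.58.1), robust dispersion, RLE and total count scaling, no filter, filterByExpr, the replicate number as a block, and leaving out mice. Within groups, counts of no pair of mice agreed within sampling noise (chi-square per degree of freedom 9.68 or more). Counting floors cover counting error only.

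Members and gene lists were chosen with earlier results of these data known. Named genes were all members, Tfam, list genes past the cutoffs or among the 6 with the highest mean CPM per list, regional markers, the 5 genes nearest to the mean member profile and the 3 nearest to each member. A few genes of the lists are not reported here. Of the lists, Drd1 was matched by an older symbol. Sequences are from RefSeq (GRCm38.p6) and transcript lengths from GENCODE M21, which matched 22750 of the 24054 symbols.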

Additional observations from a re-analysis of the deposited data

How the results depend on the processing

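The number of members past the cutoffs was 1 in the fit reported here, 2 with DESeq2's Wald test (0.467% of all genes tested), 0 with robust dispersion (0.501%), 3 without the filter on low counts (0.915%) and between 0 and 3 when each mouse was left out, in fits where 0.427 to 1.5% of all genes tested passed (0.912% in that with 3 members, without littermate control 1). It was 1 with limma-voom (0.481%), where the member was Nr4a2 and not Foxa1. Foxa1 missed the cutoffs with limma-voom (-0.83), with robust dispersion (-0.84) and without littermate control 3 and MitoPark 1 (-0.24), and its log2 fold change ranged from -1.12 to -0.53 with each mouse left out. Nr4a2 passed with limma-voom (-1.06) and without the filter (-0.92), with a range of -1.39 to -0.52. Pitx3 passed with DESeq2 (-2.29) and without the filter (-2.23), with a range of -2.70 to -1.70 over the 5 mice whose removal left it testable. filterByExpr removed Pitx3. Without littermate control 3 and MitoPark 1, a pair whose removal raises every member by construction, the number past the cutoffs was 2, the median of the members turned to 0.20, Foxa2 to 0.93, Lmx1a to 0.20 and En1 to 1.05, and En2 passed at 1.59. With each mouse left out, Foxa2 ranged from -0.90 to 0.45, Lmx1a from -0.62 to 0.00042, En1 from -1.06 to 0.60 and En2 from -0.27 to 1.14, so all 4 changed sign. The causes were not tested. Nr4a2, Foxa1 and Lmx1b were negative under every alternative run. Pitx3 was negative where tested, but it had no value without littermate control 3 or with filterByExpr. It passed the filter on low counts only through the littermate controls, so its sign supports no direction.

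The ratio of En1 to the DAergic genes turned from -0.02 to 0.040 with a pseudocount of 0.5 CPM and to 0.27 with Slc6a3 in the sum. With each mouse left out it ranged from -0.42 to 0.58, that of Foxa2 from -0.45 to 0.76, that of Lmx1b from -0.29 to 0.32, that of Nr4a2 from -0.92 to -0.20, that of Foxa1 from -0.48 to -0.05, that of Pitx3 from -1.66 to -0.65 (-0.55 with the larger pseudocount), that of Lmx1a from 0.01 to 0.60 and that of En2 from 0.29 to 1.22. The number of members whose groups did not overlap ranged from 0 to 4 with each mouse left out. The 4, without littermate control 1, were Nr4a2, Foxa1, Lmx1a and Lmx1b, in a setting in which 14.1% of all genes tested did not overlap. The number of other regulators past the cutoffs ranged from 0 to 1, and that of DAergic phenotype genes from 1 to 6 (3 without the filter and 0 with robust dispersion).

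Mice of both groups are numbered 1 to 3, and the numbers were checked for pairing. Across 14568 genes, deviations from the group mean correlated between the mice sharing a number at 0.307 for number 1, -0.07 for number 2 and 0.244 for number 3. Mice numbered 1 and 3 correlated best with their own number in both groups, but neither littermate control 2 nor MitoPark 2 did. The labels name no pairing or batch, and these correlations cannot tell whether mice with the same number shared a litter or a batch. With the replicate block, 3 members passed the cutoffs, Nr4a2 (-1.03), Foxa1 (-0.84) and Pitx3 (-2.05), as did 3 DAergic phenotype genes, and 126 genes in all (0.865%) against 84. No other member's call changed with the block. With 3 mice per group, standard errors of the members ran from 0.36 for Lmx1b, which had at most 36 counts per mouse, to 0.99 for Pitx3, and that of En1, with up to 169 counts, was 0.71, so they did not follow the counts alone.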

Other observations

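Otx2, a homeodomain factor of the ventral midbrain named here after its values were seen, had 2.45, 7.78 and 7.13 CPM in littermate controls, against 3.04, 8.58 and 6.80 CPM in MitoParks. The first replicate of each group was low, as for Lmx1a, and the log2 fold change was 0.09 (unadjusted p = 0.853, edgeR's quasi-likelihood test). Of the DAergic phenotype genes, 11 of 18 were lowest in MitoPark 1 and highest in littermate control 3, as were 4 of the 18 other regulators.

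Littermate control 3 also had the highest sum over the oligodendrocyte markers Mbp, Mog, Mag and Cnp, at 10188 CPM, where littermate controls 1 and 2 had 3647 and 5588 CPM and MitoParks 1, 2 and 3 had 5389, 6770.2 and 8890.2 CPM. Its part in the values of the members was not tested. The sum of 5 pan-neuronal genes (Rbfox3, Snap25, Syt1, Tubb3 and Eno2) was 3851 to 5023 CPM in littermate controls and 3672 to 4449 CPM in MitoParks. Sums of 5 astrocyte markers were 1261 to 1618 CPM in littermate controls and 1437 to 1867 CPM in MitoParks, and those of 5 microglia markers were 132 to 174 CPM and 160.3 to 174 CPM. Choroid plexus and ependymal markers summed to 52.7 to 226 CPM in littermate controls and 79.6 to 104 CPM in MitoParks, and striatal and cortical markers to 37.5 to 58.2 CPM and 43.4 to 69.3 CPM.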
